A study of Mus musculus with 6 samples.

Results

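The genes examined here are active while new neurons form: Hes6, Neurog2, Eomes, Sox4, Sox11, Igfbpl1, Dcx, Tubb3 and Dpysl3. They are 9 of the 18193 genes that had a probe set of their own on the array, and 29 of the 45037 probe sets measured them. The genes were picked by name after the difference between Phf8 knockout (KO) and wild-type (WT) hippocampus had been seen, with Hes6 and Dcx as the genes whose place among the others was in question. The KO and WT values of these 9 genes are therefore given as a description and were not tested.

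Total RNA of the hippocampus from WT mice and from Phf8 KO mice, both 10 weeks old and with C57BL/6 as strain background, was hybridised to Affymetrix arrays, 3 arrays for each genotype. Per the study's methods, the KO allele lacks the exons for the core of the JmjC demethylase domain. It was made in stem cells of a strain other than C57BL/6. EIIa-Cre, which acts in the early embryo, deleted the exons, so the loss is not restricted to any cell type. Females carrying the deletion were then backcrossed to C57BL/6J for several generations. The KO mice were males with the only Phf8 copy deleted, and WT animals were littermates, while the labels give no sex. The methods speak of hippocampi of 3 mice as a sample, so that an array may stand for 1 animal or for a pool, and the spread between arrays may be smaller than that between mice. All values are log2 MAS5 signals, so that a difference of 1 is a doubling. A probe set was kept when its signal exceeded the filter level, the 40th percentile of its array, on at least 3 arrays. Standard errors (SE) and adjusted p came from limma, a linear model that shares information on the variance between genes. Precision is limited by the low number of arrays, and no exact permutation test of 3 arrays against 3 can reach a p below 0.1.

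In the adult hippocampus new granule cells arise in the dentate gyrus throughout life. Radial glia-like stem cells, in which Notch signalling acts through Hes1 and Hes5, give rise to dividing intermediate progenitors that carry Neurog2 and Eomes. Their daughters become neuroblasts and immature neurons, which switch on the SoxC factors Sox4 and Sox11 and then the microtubule proteins Dcx and Tubb3, and finally mature into granule cells. Dcx marks this transient stage in the adult dentate gyrus, whereas Tubb3, Sox4, Sox11 and Dpysl3 are also found in other cells.

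Phf8, the targeted gene, was measured at 9.90, 9.66 and 9.73 on the WT arrays and at 8.23, 8.55 and 7.99 on the KO arrays, a difference of -1.51 (limma SE 0.17, adjusted p = 0.0527). KO replicate 3 differed from the other arrays as a whole: its Pearson r with the other arrays was 0.925 to 0.94, while the others correlated with each other at 0.976 or above. Of 14 listed marker genes of the thalamus, a neighbouring region, 12 were measured, and their summed linear signal was 5644 to 6213 on the WT arrays, 7776 and 7533 on the first KO arrays and 38855 on KO replicate 3. Values are therefore given array by array, and also without KO replicate 3 where it decides them.

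The sequences just before the start sites of Hes6, Sox4 and Dcx are shown because Hes6 and Dcx are the genes in question and Sox4 had the pattern closest to Hes6 among the others. Of the 9 genes 7 had an entry in the RefSeq promoter table (GRCm38.p6), with no entry for Igfbpl1 and Dpysl3. Each window holds the 250 bases before a start site on the minus strand, 5′ to 3′, and capitals mark CAGCTG, an E-box of the kind read by proneural factors.
Hes6, first start site, chr1:91414039-91414288: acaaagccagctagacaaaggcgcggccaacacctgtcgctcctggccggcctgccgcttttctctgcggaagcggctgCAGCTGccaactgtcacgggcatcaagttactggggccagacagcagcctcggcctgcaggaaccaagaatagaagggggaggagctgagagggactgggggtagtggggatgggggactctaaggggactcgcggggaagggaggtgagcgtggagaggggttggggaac
Hes6, second start site, chr1:91413223-91413472: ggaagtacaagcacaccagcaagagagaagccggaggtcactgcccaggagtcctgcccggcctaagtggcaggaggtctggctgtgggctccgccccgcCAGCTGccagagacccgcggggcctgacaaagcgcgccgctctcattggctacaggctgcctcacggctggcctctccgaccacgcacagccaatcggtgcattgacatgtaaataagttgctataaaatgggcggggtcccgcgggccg
Sox4, chr13:28953700-28953949: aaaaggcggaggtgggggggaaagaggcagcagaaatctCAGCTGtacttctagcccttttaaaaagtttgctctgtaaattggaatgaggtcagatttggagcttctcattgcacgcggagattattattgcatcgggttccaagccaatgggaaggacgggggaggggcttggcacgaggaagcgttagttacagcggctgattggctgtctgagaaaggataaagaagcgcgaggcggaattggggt
Dcx, first start site, chrX:143933220-143933469: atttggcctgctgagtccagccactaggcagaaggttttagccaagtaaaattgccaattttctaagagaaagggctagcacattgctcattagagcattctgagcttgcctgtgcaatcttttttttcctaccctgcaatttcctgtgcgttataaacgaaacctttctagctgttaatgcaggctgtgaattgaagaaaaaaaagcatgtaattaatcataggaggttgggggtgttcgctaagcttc
Both Hes6 windows and the windows of Sox4 and Sox11 held CAGCTG, beginning 171, 150, 211 and 210 bases before the start. CAGCTG, which reads the same on both strands, occurred in 13% of all 32851 windows of this length. The related E-box CAGATG, searched on both strands, was in none of the windows of the 7 genes and in 14.4% of all windows. AACAAT, the core of Sox factor motifs, was found on either strand in the Neurog2 window alone and in 9.42% of all windows. These are matches of letters in a short window and were not tested for binding.

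By the brightest probe set of each gene, Hes6, Dcx, Sox4, Eomes and Dpysl3 had all 3 KO arrays above every WT array, Tubb3 and Igfbpl1 had higher KO means with overlapping arrays, and Sox11 and Neurog2 had lower KO means. The differences of the genes that did not overlap ran from 0.31 for Dpysl3 to 1.71 for Eomes. Hes6 stood at 1.80-fold and Dcx at 1.39-fold. Among all named genes 8.6% had every KO array above every WT array, and 6.65% had every KO array below. At least 1.5-fold higher were 3 of the 9 genes, Hes6, Eomes and Igfbpl1, and 1 gene, Neurog2, was at least 1.5-fold lower, against 10.4% and 7.81% of all named genes. Without KO replicate 3 the number at least 1.5-fold higher was again 3, against 10.7% of all named genes. Since these genes were chosen with the comparison known, nothing is read from these counts. In bulk tissue, a change in the number of cells of a type and a change in their RNA content cannot be told apart.

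**Figure D1:**
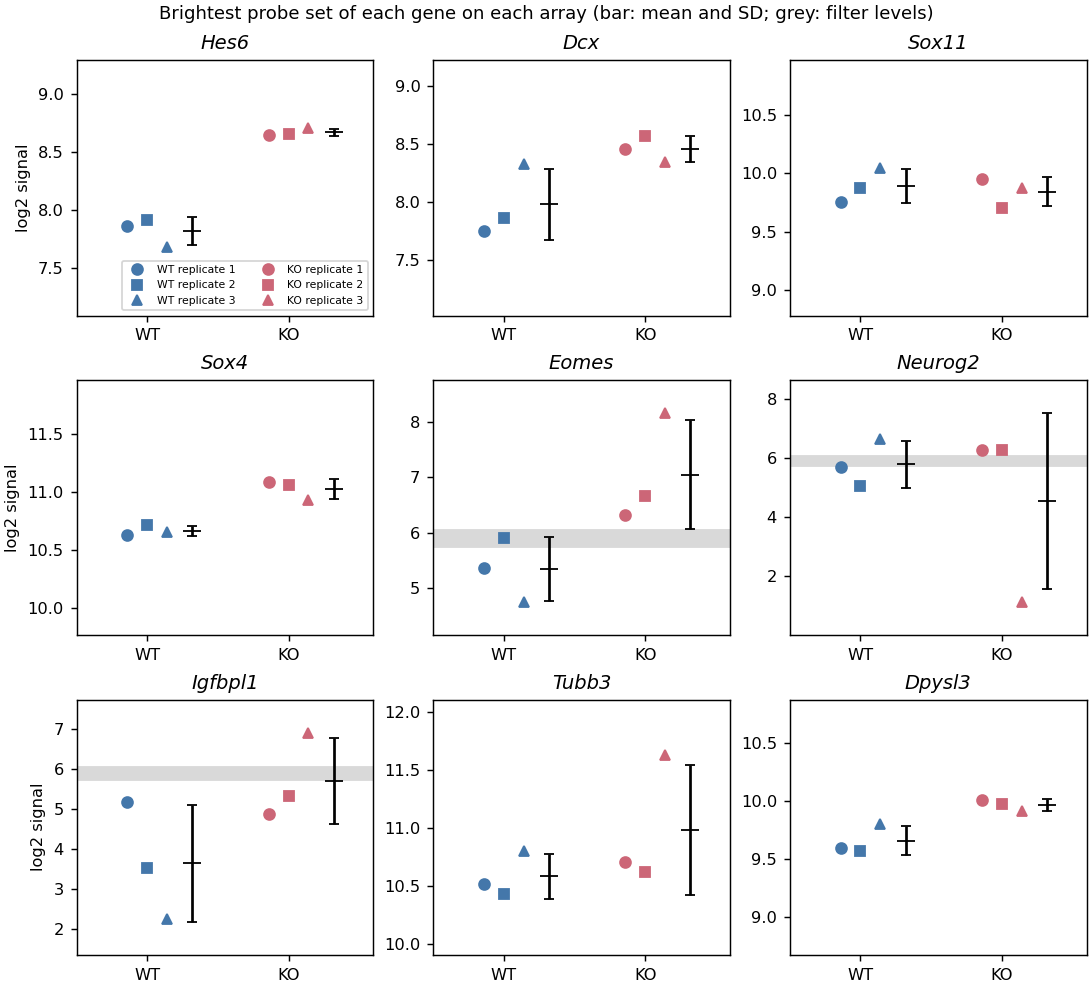
Log2 signal of the brightest probe set of each of the 9 neurogenesis genes on the 3 WT arrays (blue) and 3 KO arrays (red), with mean and SD beside each group and the range of the filter levels as a grey band; axes span different values. The KO arrays lie above all WT arrays for Hes6, Dcx, Sox4, Eomes and Dpysl3. The wider KO spread of Neurog2, Eomes and Tubb3 comes largely from KO replicate 3, and several Neurog2 and Eomes arrays lie near the band. Igfbpl1 spreads widely in both groups, with only KO replicate 3 above the band.

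Hes6 encodes a basic helix-loop-helix relative of Hes1 and Hes5 that opposes Hes1 and favours neuronal differentiation. Its brightest probe set read 7.86, 7.91 and 7.68 on the WT arrays and 8.65, 8.66 and 8.70 on the KO arrays. The KO arrays lay within 0.06 of each other, and KO replicate 3 did not stand apart here. The WT mean was 7.82 ± 0.12 (SD, n = 3) and the KO mean 8.67 ± 0.03 (SD, n = 3), a difference of 0.85 (limma SE 0.15). The design of this probe set allows some of its probes to match other transcripts. The second Hes6 probe set read 6.67, 6.37 and 5.88 in WT and 7.16, 6.45 and 7.27 in KO, a difference of 0.65 (limma SE 0.33). Its groups overlapped, since KO replicate 2 lay below WT replicate 1.

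Neurog2, a proneural factor of progenitors committed to a glutamatergic fate, was measured by a single probe set at 5.68, 5.04 and 6.63 in WT and 6.26, 6.27 and 1.13 in KO. These signals lay near the filter level, 5.73 to 6.05 depending on the array, and KO replicate 3 was far under it. The difference of -1.23 (limma SE 1.36) turned to 0.48 without KO replicate 3.

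Eomes, also known as Tbr2, is a T-box factor that marks intermediate progenitors. Its brighter probe set read 5.36, 5.90 and 4.75 in WT and 6.31, 6.66 and 8.16 in KO, a difference of 1.71 (limma SE 0.54). No WT array and all 3 KO arrays were above the filter level, so the probe set was kept through the KO arrays alone. Without KO replicate 3 the difference was 1.15. With all 6 arrays and 64 added to each linear signal before the logarithm, it was 0.94. The dimmer Eomes probe set did not pass the filter, and its 8.03 on KO replicate 3 stood above 1.07 to 5.22 on the other 5 arrays.

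Sox4 and Sox11 encode closely related HMG-box factors of newborn neurons that act on Dcx and Tubb3. Their brightest probe sets behaved differently. The averages over their kept probe sets were close to each other over all arrays, but KO replicate 3 was the highest array in several of those probe sets. The brightest Sox4 probe set read 10.63, 10.71 and 10.65 in WT and 11.08, 11.06 and 10.93 in KO. The WT arrays were tight and all KO arrays lay above them, with means of 10.66 ± 0.04 (SD, n = 3) and 11.02 ± 0.08 (SD, n = 3) and a difference of 0.36 (limma SE 0.10). The other 3 kept Sox4 probe sets gave 0.19, 0.26 and -0.10 with overlapping groups, and in each of them KO replicate 2 was the lowest of all arrays. Those at 0.19 and 0.26 read 8.20 and 8.13 on KO replicate 3, above every other array. A further 4 Sox4 probe sets were below the filter on every array. Averaged over its kept probe sets the Sox4 difference was 0.17.

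Sox11 was measured by 6 kept probe sets, and in none of them were the groups apart. The brightest read 9.75, 9.87 and 10.05 in WT and 9.95, 9.71 and 9.87 in KO, a difference of -0.05 (limma SE 0.14). The other 5 had differences of 0.12 to 0.33. Averaged over its kept probe sets the Sox11 difference was 0.18, beside 0.17 for Sox4, and both averages include KO replicate 3. The probe set with the difference of 0.33 read 8.64, 8.53 and 9.69 on the KO arrays, so that KO replicate 3 alone exceeded the highest WT value of 8.85. The dimmest read 7.55, 6.95 and 8.84 on the KO arrays, again with only KO replicate 3 above the highest WT value, 7.77.

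Igfbpl1, a secreted protein related to the insulin-like growth factor binding proteins and found in neuroblasts, had no probe set above the filter. The brighter read 5.17, 3.53 and 2.24 in WT and 4.88, 5.33 and 6.92 in KO. The dimmer read 2.54, 2.75 and 2.50 in WT and 5.55, 3.48 and 7.66 in KO, with KO above WT on all arrays. Only KO replicate 3 was above the filter level in either probe set. The difference of the brighter probe set, 2.06, shrank to 0.60 with 64 added to each signal.

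Dcx, doublecortin, binds microtubules in migrating neuroblasts and immature neurons. Of the 9 genes it alone lies on the X chromosome, as does the targeted gene Phf8, and strain differences in sequence there were not examined. The brightest Dcx probe set read 7.75, 7.86 and 8.32 in WT and 8.46, 8.57 and 8.34 in KO. All KO arrays were higher, but WT replicate 3 and KO replicate 3 were almost level. The means were 7.98 ± 0.30 (SD, n = 3) and 8.46 ± 0.11 (SD, n = 3), a difference of 0.48 (limma SE 0.19). The other kept Dcx probe set went the opposite way, with 6.95, 6.95 and 7.57 in WT and 7.25, 6.79 and 6.12 in KO, a difference of -0.44 (limma SE 0.34). Much of that difference came from KO replicate 3, while KO replicate 1 lay within the WT range. Of the 2 Dcx probe sets below the filter on every array, 1 differed by 0.44 with overlapping groups. The other differed by -1.27, with every KO array below every WT array. The mean over the kept Dcx probe sets was 0.02 with KO replicate 3 included, so that over all arrays the direction of Dcx rested on the probe set chosen.

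Tubb3, the neuronal beta-tubulin of immature and mature neurons, read 10.52, 10.42 and 10.80 in WT and 10.71, 10.61 and 11.62 in KO. The difference of 0.40 (limma SE 0.27) came mostly from KO replicate 3 and was 0.08 without it. Dpysl3, a collapsin response mediator protein of growing axons, read 9.60, 9.58 and 9.81 in WT and 10.01, 9.98 and 9.92 in KO. Here KO replicate 3 was the lowest KO array and still above WT. The means were 9.66 ± 0.13 (SD, n = 3) and 9.97 ± 0.05 (SD, n = 3), a difference of 0.31 (limma SE 0.13), and the other 2 kept probe sets gave 0.30 and 0.35 with overlapping groups. Over all arrays, Dpysl3 was the gene whose kept probe sets, 3 in number, agreed most closely in their differences. In the other 2, however, KO replicate 3 was the highest of all arrays. The probe set at 0.30 read 8.11, 8.02 and 8.44 in WT and 8.52, 7.92 and 9.04 in KO, with KO replicate 2 the lowest array.

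The kept probe sets of the 9 genes were 20 in number, from 8 genes, with several measuring the same gene. Of these, 16 were higher and 4 lower in KO. Counted by gene and not by probe set, 51.9% of all genes above the filter had a higher KO mean. Over all 27408 kept probe sets of the array the median difference was -0.01. Every KO array was above every WT array in 5 of the 20 and below in 0, against 7.37% and 7.83% of all 27408 kept probe sets. The 5 were the brightest probe sets of Hes6, Dcx, Sox4, Eomes and Dpysl3. That of Eomes was kept through the KO arrays alone, and the genes were chosen with the comparison known. Nothing is therefore read from these counts either. In the limma fit over all kept probe sets, 0.0219% passed an adjusted p of 0.05. That fit was not used as a test of the 9 genes.

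**Figure D2:**
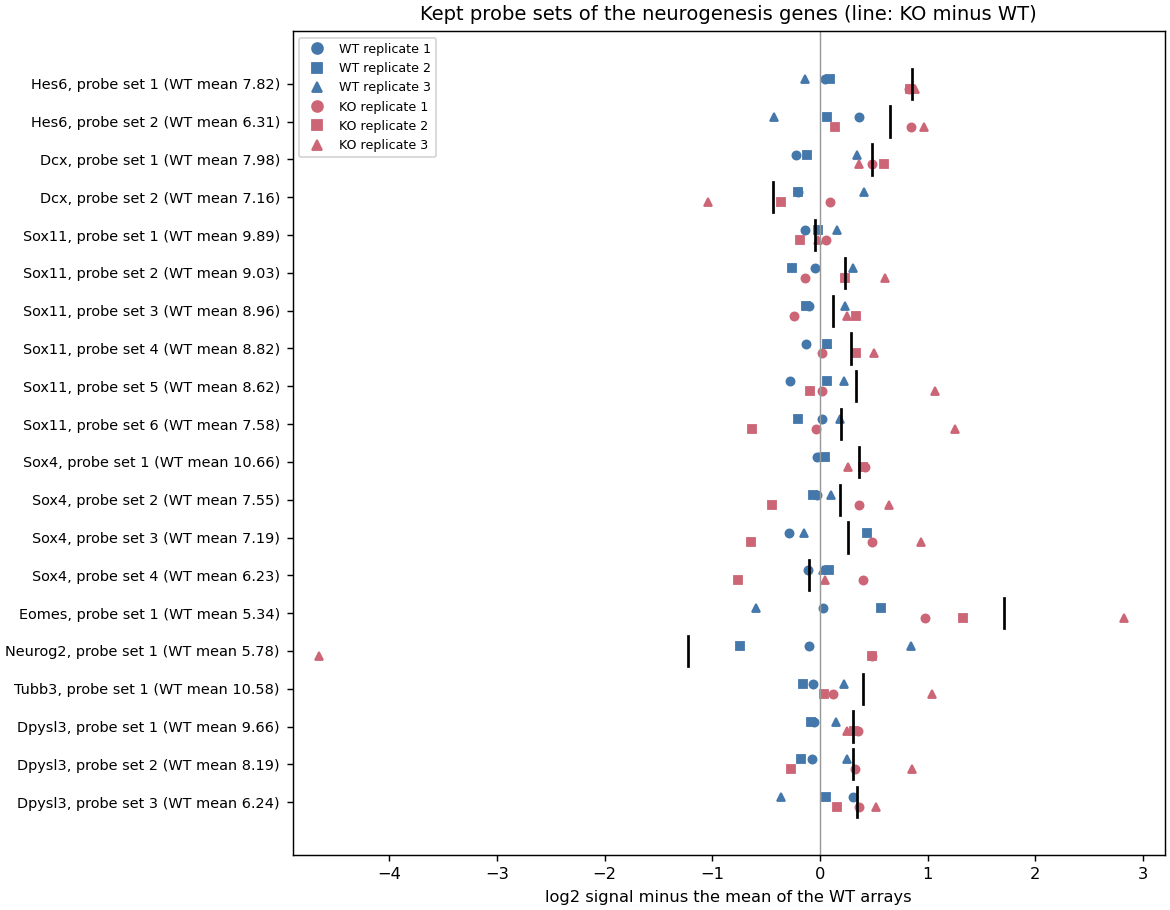
Log2 signal minus the mean of the WT arrays for the 20 kept probe sets of the neurogenesis genes, numbered by brightness within a gene, on each WT array (blue) and KO array (red); the black line is the KO mean minus the WT mean. Hes6 probe set 1 has its 3 red points together at the right of all blue points, the Dcx probe sets lie on opposite sides of 0, and KO replicate 3 (red triangle) is the extreme point for Eomes, Neurog2 and Tubb3.

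Whether Hes6 and Dcx moved with the others was described over the 6 arrays. With the WT mean of each gene set to 0, the median over the 9 genes was -0.06, -0.08 and 0.15 on the WT arrays and 0.48, 0.49 and 0.37 on the KO arrays. On KO replicate 3 this median stood over genes far apart, with Igfbpl1 at 3.27, Eomes at 2.83, Tubb3 at 1.04 and Neurog2 at -4.65. The median of all named genes lay within -0.02 and 0.05 on every array. The median difference of the 9 genes was 0.40, beside 0.01 for all named genes. Among the WT arrays, replicate 3 had the highest signal of Dcx, Sox11, Tubb3, Dpysl3 and Neurog2 and the lowest of Hes6, Eomes and Igfbpl1. Among the KO arrays, replicate 3 had the highest signal of Hes6, Eomes, Igfbpl1 and Tubb3 and the lowest of Dcx, Sox4, Dpysl3 and Neurog2. Hes6, Eomes and Igfbpl1 were thus alike in being lowest on WT replicate 3 within WT and highest on KO replicate 3 within KO, by little for Hes6 in KO, and Dcx, Dpysl3 and Neurog2 were the reverse on both arrays.

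The Pearson r of Hes6 with the other genes over the 6 arrays, which share the genotype difference, was 0.94 with Sox4, 0.85 with Eomes, 0.80 with Dpysl3 and 0.68 with Dcx. It was 0.48 with Tubb3, -0.31 with Sox11 and -0.40 with Neurog2. For the brightest Dcx probe set it was 0.96 with Dpysl3, 0.79 with Sox4, 0.40 with Eomes, 0.39 with Tubb3, 0.17 with Sox11 and 0.03 with Neurog2. The genes most like Hes6 were Ten1 (r = 0.999), Zbtb22 (r = 0.998) and Yif1a (r = 0.993), all higher in KO, and Senp1 was the most opposed (r = -0.992). Those most like Dcx were Prrg3 (r = 0.994), Akap5 (r = 0.987) and Gng4 (r = 0.985), with E230016M11Rik the most opposed (r = -0.991). Of 12902 genes, 224 had an r above 0.9 with Hes6 and 108 with Dcx.

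The stages before and after these genes were followed with lists of other genes, in a limma fit over 12903 genes above the filter. In that fit 0% of the genes passed an adjusted p of 0.05 as higher in KO and 0.062% as lower, and no gene of any list passed. At an unadjusted p under 0.05, 4.69% of all genes were higher and 2.79% lower. The median difference of all genes was 0.01, 51.9% of them had a higher KO mean, and 9.56% had every KO array above every WT array and 7.13% below.

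Stem cell and radial glia genes, most of which astrocytes also carry, had 17 of 20 members measured, 14 with higher and 3 with lower KO means, and a median difference of 0.22. At an unadjusted p under 0.05, 4 were higher and 0 lower, and 5 had every KO array above every WT array. Hes5, the Notch target that keeps stem cells undifferentiated, read 6.28, 6.34 and 6.67 in WT and 7.64, 7.53 and 7.45 in KO. Its KO arrays were all well above WT, with a difference of 1.11 (limma SE 0.20, adjusted p = 0.285). The WT signals lay not far above the filter level, and the difference was 0.74 with 64 added to each signal. Fabp7, the brain lipid-binding protein of radial glia, read 10.43, 10.48 and 10.73 in WT and 11.23, 11.28 and 10.92 in KO, a difference of 0.59 (limma SE 0.14, adjusted p = 0.511). Without KO replicate 3 the difference of the gene Fabp7 was 0.70 and passed in limma (adjusted p = 0.0341). Over the settings that gave a value for this gene, its limma adjusted p ran from 0.0181 to 0.988. Sox2, the factor of stem cell self-renewal, differed by 0.37 (limma SE 0.10, adjusted p = 0.563), with all KO arrays above WT. Id4 and Pax6, chosen after their values were seen, made up the 5, each at 0.22 (limma adjusted p = 0.669 and 0.727). Hopx, a marker of quiescent stem cells, differed by 0.32 (limma adjusted p = 0.659) with overlapping groups. Nes, the intermediate filament nestin and also chosen after its values were seen, differed by -0.36 (limma adjusted p = 0.769).

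**Figure D3:**
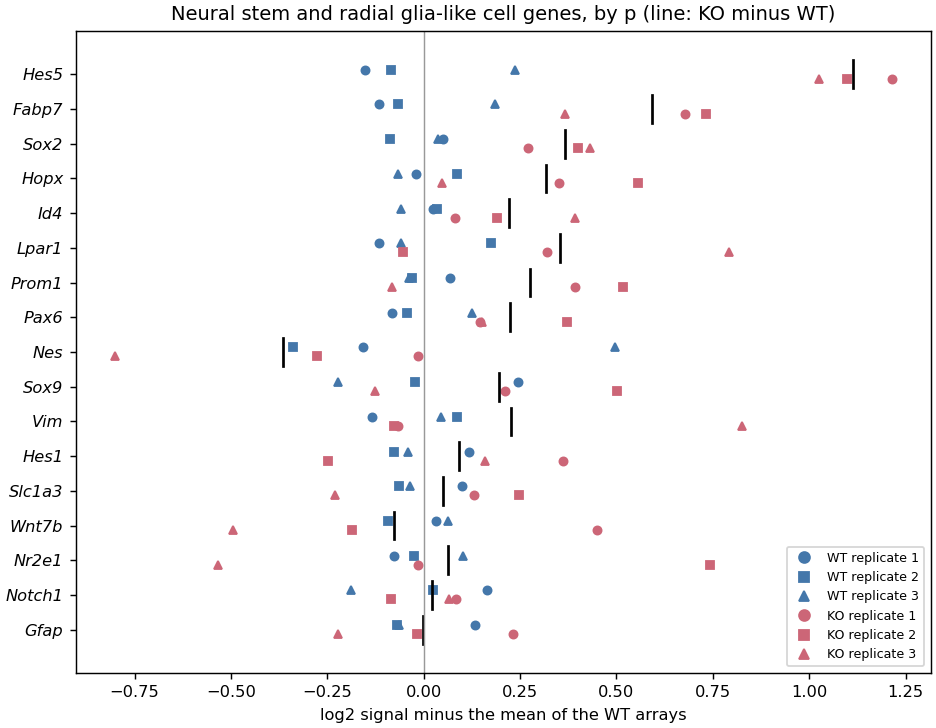
Log2 signal minus the mean of the WT arrays for the 17 measured stem and radial glia-like cell genes, ordered by unadjusted limma p, on each WT array (blue) and KO array (red); the black line is the KO mean minus the WT mean. Hes5, Fabp7, Sox2, Id4 and Pax6 have all 3 red points to the right of the blue points, and Nes lies furthest to the left.

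The Notch pathway list, which shares Hes5, Hes1 and Notch1 with the stem cell list, had all 20 genes measured, with 14 higher, 6 lower and a median of 0.05, or 0.19 without KO replicate 3. At an unadjusted p under 0.05 only Hes5 was higher. The receptor Notch3 differed by 0.48 (limma adjusted p = 0.661), the receptor modifier Lfng by 0.55 (limma adjusted p = 0.673) and the target Hey1 by 0.25 (limma adjusted p = 0.673). Cell division genes had 11 of 18 measured, 7 higher and 4 lower, with a median of 0.05. Cdca8 of the chromosomal passenger complex differed by 0.54 (limma adjusted p = 0.659) and cyclin Ccna2 by 0.44 (limma adjusted p = 0.669), while Ube2c differed by -0.59 and Pcna by -0.27 (limma adjusted p = 0.673 for both).

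Other genes of immature neurons had 31 of 33 measured, 18 higher and 13 lower, with a median of 0.11, and 3 had an unadjusted p under 0.05, all higher. Stmn1, stathmin, read 13.51, 13.52 and 13.64 in WT and 13.73, 13.72 and 13.83 in KO, a difference of 0.20 (limma SE 0.07, adjusted p = 0.605). St8sia2, which adds polysialic acid to Ncam1, differed by 0.62 (limma adjusted p = 0.659), and Rnd2 by 0.58 (limma adjusted p = 0.669). These were the 3 genes of the list with every KO array above every WT array. Gap43, the growth cone protein, read 11.07, 11.28 and 12.32 in KO against 11.08 as its highest WT value, a difference of 0.83 (limma adjusted p = 0.659) that was 0.45 without KO replicate 3. The 3 genes with every KO array below WT, chosen after their values were seen, were Bcl11b (-0.57), Elavl3 (-0.27) and Neurod2 (-0.59), which mature hippocampal neurons also carry, with limma adjusted p of 0.675, 0.684 and 0.693. Without KO replicate 3 they differed by -0.19, -0.11 and -0.13.

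Mature granule cell genes had all 12 measured, with 1 higher, 11 lower and a median of -0.41, or -0.19 without KO replicate 3. With the WT mean set to 0, the median of the list was 0.14, 0.09 and -0.24 on the WT arrays and -0.21, -0.14 and -0.74 on the KO arrays, so that WT replicate 3 overlapped the KO arrays. Lct read 10.82, 10.64 and 10.19 in WT and 9.95, 9.83 and 9.58 in KO, a difference of -0.76 (limma SE 0.19, adjusted p = 0.531). Stxbp6 (-0.35) and the channel Trpc6 (-0.73) also had every KO array below WT (limma adjusted p = 0.59 and 0.605), and Npnt differed by -0.55 with overlapping groups (limma adjusted p = 0.673). Prox1, the factor that sets granule cell identity, differed by -0.28 (limma adjusted p = 0.693) and Calb1, calbindin, by 0.04 (limma adjusted p = 0.916), both chosen after their values were seen. Pyramidal cell markers, the other main neurons of the hippocampus, had 10 of 11 measured, 4 higher and 6 lower, with a median of -0.16, or 0.01 without KO replicate 3. Their summed linear signal was 18619 to 19908 in WT and 19708, 20471 and 11793 in KO, and that of the granule cell list was 27441 to 32007 in WT and 25701, 28484 and 21566 in KO, so that both sums were lowest on KO replicate 3.

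Several of the 9 genes are also carried by cells outside the dentate gyrus, and lists of markers of those cells are given for the same arrays, with no gene past the adjusted p. The thalamus list had 12 of 12 measured genes with higher KO means and a median of 0.95, or 0.15 without KO replicate 3, and 5 of the 12 had every KO array above every WT array, Zic1 (1.88) and Tcf7l2 (1.40) among them (limma adjusted p = 0.638 and 0.68). Neuroblasts of the subventricular zone, which carry Dcx, Sox11, Igfbpl1 and Tubb3 too, had 9 of 14 listed markers measured, 8 higher and 1 lower. The median of that list was 0.44, 0.34 and 1.29 on the KO arrays against -0.07, -0.09 and 0.18 in WT, and its summed linear signal was 3000 to 3526 in WT and 3999, 4032 and 7767 in KO. Meis2 (0.73), Dlx5 (0.61), Dlx2 (0.52) and Dlx1 (1.07), the Dlx genes being factors of interneurons and their precursors, had an unadjusted p under 0.05 (limma adjusted p = 0.595 to 0.659). Ependymal markers were higher for 10 of 10 genes with a median of 0.68, and oligodendrocyte progenitor markers for 9 of 10 with a median of 0.15. Choroid plexus markers had 2 of 8 genes higher, with a list median of 1.32, 0.28 and -1.82 on the KO arrays and -0.96 to 0.91 in WT. Without KO replicate 3, the differences were 1.46 for Igfbpl1, 1.15 for Eomes, 0.83 for Hes6, 0.53 for Dcx, 0.48 for Neurog2, 0.41 for Sox4, 0.33 for Dpysl3, 0.08 for Tubb3 and -0.06 for Sox11. The list medians were then 0.15 for the thalamus, 0.39 for the subventricular zone, 0.46 for ependyma, 0.10 for oligodendrocyte progenitors and 0.82 for choroid plexus. The part of these tissues in the neurogenesis genes was not tested.

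**Figure D4:**
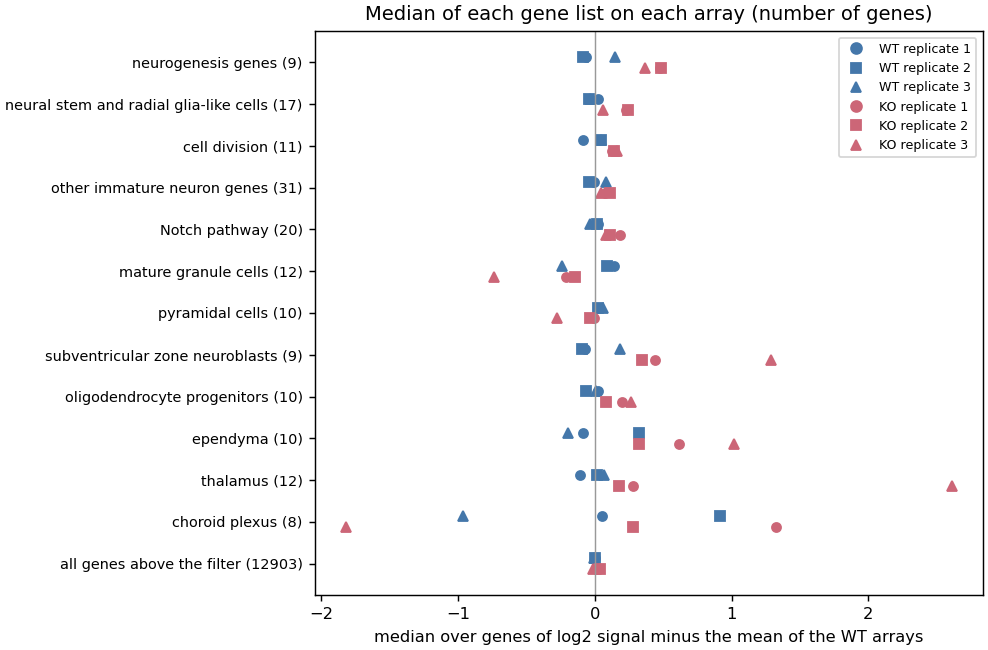
Median over the measured genes of each list of the log2 signal minus the WT mean, on each WT array (blue) and KO array (red), with the number of genes in brackets and all genes above the filter in the lowest row. KO replicate 3 (red triangle) is at 2.61 for the thalamus and 1.29 for subventricular zone neuroblasts, and the median of the 9 neurogenesis genes is 0.37 there, with single genes from -4.65 (Neurog2) to 3.27 (Igfbpl1).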

How the data were processed

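RNA from 6 hippocampal samples, 3 WT and 3 KO, was hybridised to 3′ expression arrays. The deposited values are log2 signals that the authors made with MAS5 and affy, per the labels, without versions, and each array was scaled to a common trimmed mean of 497 to 498. The study's methods name GeneSpring, removal of Absent calls and a fold of 1.5. Detection calls were not analysed here, and a probe set was kept instead when above the 40th percentile of its array on at least 3 of 6 arrays, 27408 of 45037. Of all probe sets 34945 carried 1 gene symbol, 932 several and 9160 none. A gene was its brightest kept probe set with 1 symbol, 12903 in all. The neurogenesis genes used every probe set, and their brightest whether kept or not. MAS5 signals near background vary widely on the log scale.

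KO was compared with WT by limma 3.58.1 in R 4.3.3 (lmFit, eBayes with trend, Benjamini-Hochberg over all genes tested), checked on simulated data. P-values measure the spread between these samples, which may be technical. The 9 genes and all lists were chosen with earlier results of these data known. Named were the 9 genes, Phf8, the 4 genes with the smallest p of a list, and the 3 genes most and the 1 least like Hes6 and Dcx by Pearson r; of marker lists of other tissues, fewer are given. Genes outside this rule are marked. Alternatives changed the filter (20th or 60th percentile, or none), scaling, an offset of 16 or 64, the probe set rule, the variance trend and array weights, added a replicate block or left out each array. Array weights were computed gene by gene, because limma's default procedure did not converge. Promoter windows came from RefSeq.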

Additional observations from a re-analysis of the deposited data

How the results depend on the processing

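For single genes the alternatives held to the brightest probe set, apart from the mean of kept probe sets. Under those that gave a value, Hes6, Sox4, Dcx, Eomes, Igfbpl1, Tubb3 and Dpysl3 kept a higher KO mean. Hes6 was at 0.70 to 0.90, Dcx at 0.02 to 0.65 and Sox4 at 0.17 to 0.41. The 0.02 of Dcx came with the mean of kept probe sets. Its other kept probe set, at -0.44, was not an alternative of its own, so the direction of Dcx still rested on the probe set. Sox11 (-0.12 to 0.18) and Neurog2 (-2.09 to 0.48) changed sign. The median of the 9 genes was 0.36 to 0.51 with single arrays left out. With the mean of kept probe sets it was 0.25, over the 8 genes with a kept probe set and so without Igfbpl1. The filter and variance alternatives gave no value of their own for these genes. The number of genes lower at an adjusted p under 0.05, 8 in the limma fit, was 0 without the variance trend, 60 with array weights and 0 to 41 with single arrays left out, and the number higher was 55 with array weights and 0 to 13 with single arrays left out. The 41 and 13 came without KO replicate 3. Array weights gave KO replicate 3 a weight of 0.144. With them 2 stem cell genes passed as higher, Hes5 (adjusted p = 0.0229) and Fabp7 (adjusted p = 0.0181), and Hes5 was the 1 gene of the Notch list. The subventricular zone marker Dlx2 (adjusted p = 0.0449) passed too. Over the alternatives that gave a value for Hes5, its limma adjusted p ran from 0.0229 to 0.988, and at the 60th percentile Hes5 did not pass the filter. With single arrays left out, 0 to 1 stem cell genes passed. The cell division median was 0.19 without a filter and at the 20th percentile, -0.18 at the 60th, 0.14 with array weights, -0.050 over probe sets and -0.023 to 0.14 with single arrays left out. The Notch median was 0.17 with array weights and -0.0082 to 0.19 with single arrays left out. Markers of other cells that changed sign were Nwd2 (-0.028 with median centring, -0.047 to 0.10 with single arrays left out), Kcnj13 (0.87 with array weights, -1.42 to 0.98), Clic6 (-0.16 to 1.05), Neurod6 (-0.95 to 0.050) and Pou3f1 (-1.07 to 0.068). The causes were not tested.

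No pairing of the samples by replicate number was seen: deviations from the group means of samples with the same number correlated at -0.04, 0.07 and 0.13. Samples with different numbers correlated at -0.16 to 0.20. Deviations within groups of 3 arrays cannot exclude a pairing. With the number as a replicate block, 4 genes were lower at an adjusted p under 0.05 in limma, and no neurogenesis gene list gained or lost a gene.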
